A study of Mus musculus with 6 samples.

Results

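The genes examined were those of the Wnt signalling pathway at the cell surface and its immediate feedback: ligands, receptors, antagonists and the best known target genes. They were taken by name, as every probe set annotated to a single symbol of the Wnt, Fzd, Sfrp, Dkk or Rspo families or to Frzb, Lgr4, Lgr5, Lgr6, Lrp5, Lrp6, Nkd1, Nkd2, Axin2, Lef1, Tcf7l1, Tcf7l2, Rnf43, Znrf3, Notum, Wif1, Apcdd1, Porcn or Sp5. This gave 61 genes, read by 66 probe sets, among 22180 genes tested on the arrays. Where several probe sets read a gene, the brightest by its mean of the 6 arrays stands for it. They comprise 19 ligands, 12 receptors and co-receptors, 12 secreted or surface antagonists, 9 genes of the R-spondin axis, 4 cytoplasmic feedback inhibitors and target genes, 3 TCF/LEF transcription factors, the ligand acyltransferase gene Porcn and Fzd10os. Fzd10os is a long non-coding transcript on the strand opposite Fzd10 and not a receptor, and met the rule only by its name.

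Total RNA was measured on 6 biotin-labelled arrays, 3 from cells with the genotype SLK knockout and 3 from cells with the genotype SLK wild-type. SLK is a Ste20-like protein kinase. Both groups were NeuNDL-transformed mouse cell lines, carrying an activated form of the receptor tyrosine kinase Neu (ErbB2), and both were left untreated in the same serum-containing medium with a mammary epithelial supplement. The series names cultures at several passages, but nothing in the labels says which passage, clone or line an array came from or what was deleted, so the p-values measure the spread between these samples. A value is the deposited log2 signal of a probe set, and the log2 fold change is knockout minus wild-type.

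In the canonical Wnt pathway, secreted Wnt ligands bind a Frizzled receptor together with the co-receptor LRP5 or LRP6, which stabilises beta-catenin and lets it act with TCF/LEF factors on target genes. Several targets, among them Axin2, Nkd1 and Notum, feed back to dampen the signal. R-spondins strengthen it through LGR receptors, by removing the ubiquitin ligases RNF43 and ZNRF3 that clear Frizzled from the surface. In the mammary gland the pathway is known for its part in ductal growth and in the upkeep of basal stem cells, and Wnt1 is a classic mouse mammary oncogene.

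Slk was lower on every knockout array, with 7.14, 7.21 and 7.20 in knockout cells, against 8.21, 8.30 and 8.34 in wild-type cells (log2 fold change -1.10, SE 0.06, limma adjusted p = 0.0021). Array medians lay between 3.93 and 3.97, and any pair of arrays differed over probe sets by an SD of 0.26 or more. Of the epithelial markers that bear on the label, Krt8 averaged 10.47 ± 0.03 in knockout cells and 10.32 ± 0.02 in wild-type cells (SD, n = 3 each), brighter than 99.0% of genes. Epcam, an epithelial adhesion molecule, averaged 7.33 ± 0.05 in knockout cells and 7.68 ± 0.06 in wild-type cells (SD, n = 3 each). These markers of epithelium were thus present in both groups, but others were dim. Of 14 luminal markers measured, Krt19, Foxa1, Muc1, Elf5 and Pgr were the dimmest, brighter than only 21.8% to 35.5% of genes. Vim, read here as a basal marker, was brighter than 99.97% of genes. The leukocyte marker Ptprc, at 2.17 ± 0.13 in knockout cells and 2.22 ± 0.11 in wild-type cells (SD, n = 3 each), was dimmer than all but 9.81% of genes. It was the dimmest of 9 leukocyte markers measured. The brightest, Cd68, averaged 7.10 ± 0.07 in knockout cells and 7.15 ± 0.05 in wild-type cells (SD, n = 3 each), brighter than 76.4% of genes.

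Of the 61 Wnt genes, 3 rose in knockout cells and none fell. These were the R-spondin receptor gene Lgr6, the cytoplasmic inhibitor gene Nkd2 and the secreted antagonist gene Sfrp1. A gene was called when its two-sided limma p, adjusted by Benjamini-Hochberg over all 22180 genes, was under 0.05. By that rule 0.325% of all genes were called higher and 0.113% lower, against 4.92% of the Wnt genes called higher. At an unadjusted p under 0.05, 9 Wnt genes were higher and 0 were lower, where 5.75% of all genes were higher and 4.47% lower. On 10 Wnt genes the knockout arrays all lay above the wild-type arrays, 16.4% of the 61, and on 0 they all lay below. Among all genes, 8.79% were separated upward and 8.10% downward. The median log2 fold change of the list was -0.0073, against 0.0038 for all genes, with 28 positive and 33 negative values. Of the 58 genes not called, 54 had a 95% interval wholly within 0.5 log2 units of no change, a 1.41-fold difference either way, and the rest were open to more. Such an interval was common, held by 19723 of all 22180 genes. It bounds the deposited signal, which compresses the differences of dim genes. Only 27 of the 61 Wnt genes remained when the dimmest 50% of genes were left out. In RNA from whole cultures, a different share of cells of one kind and a different amount of RNA per cell cannot be told apart.

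**Figure D1:**
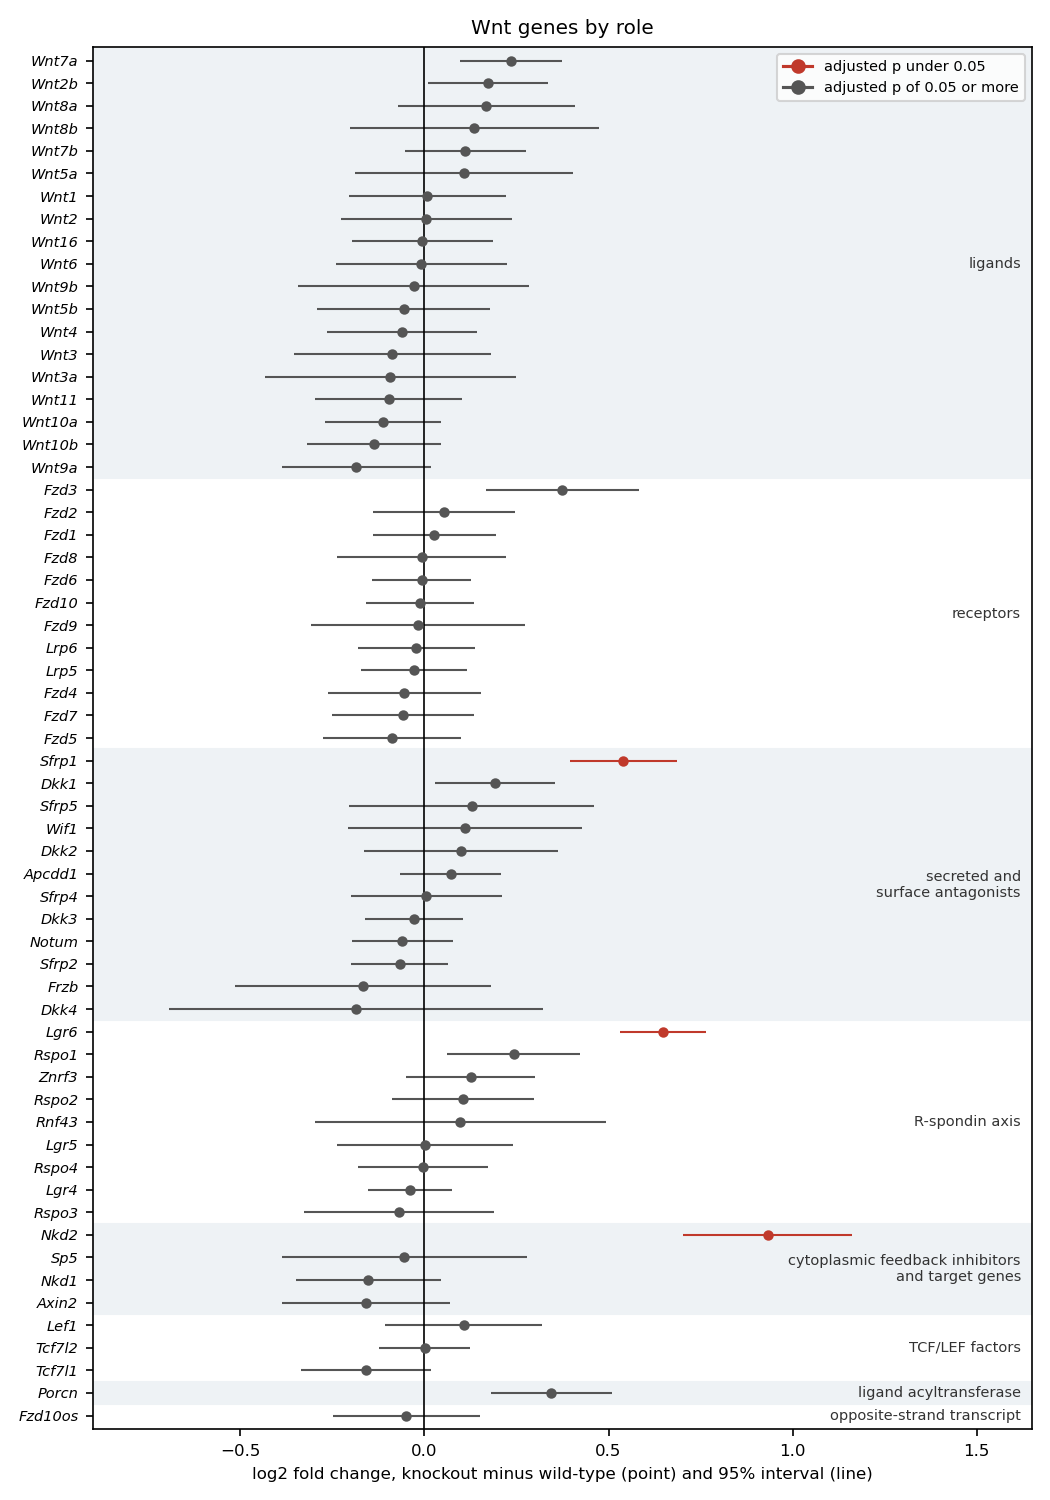
Log2 fold change (horizontal axis, knockout minus wild-type) of the 61 Wnt genes, grouped by role down the page, with 95% intervals from limma as lines and genes with an adjusted p under 0.05 in red. Lgr6, Nkd2 and Sfrp1 stand to the right of all others, and no gene lies as far to the left: the lowest value is -0.19, of Dkk4.

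Genes of the R-spondin axis held the most precisely measured rise. Lgr6 encodes a receptor for R-spondins that marks stem or progenitor cells in several epithelia. Its log2 values were 7.32, 7.34 and 7.26 in knockout cells, against 6.65, 6.68 and 6.64 in wild-type cells. The arrays within each group lay close together and the groups were far apart. The log2 fold change was 0.65 (SE 0.05, 95% interval 0.53 to 0.76), a 1.57-fold rise (limma adjusted p = 0.0066).

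The other LGR receptors did not pass the test. Lgr4, the member with the smallest spread within groups of all 61 genes, had 7.37, 7.32 and 7.33 in knockout cells, against 7.40, 7.36 and 7.38 in wild-type cells. Its log2 fold change was -0.04 (95% interval -0.15 to 0.07), which leaves room for only a small difference. Lgr5, the intestinal stem cell marker, had a log2 fold change of 0.0016 (95% interval -0.24 to 0.24), and a dimmer probe set of the gene gave -0.04. The difference between the log2 fold changes of Lgr6 and Lgr4 was 0.69, and that between Lgr6 and Lgr5 was 0.65. In each case the knockout arrays all lay above the wild-type arrays, and the exact two-sided permutation p was 0.10, the smallest that 3 arrays against 3 allow. Lgr6 was already called on these arrays, so the separate groups are no further evidence.

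Among the ligands of these receptors, Rspo1 had log2 values of 4.87, 4.63 and 4.73 in knockout cells, against 4.57, 4.48 and 4.45 in wild-type cells. The groups did not overlap, but the gene missed the threshold (log2 fold change 0.24, SE 0.08, adjusted p = 0.34). Znrf3, one of the ligases that R-spondins remove, had 6.55, 6.58 and 6.55 in knockout cells, against 6.288, 6.524 and 6.495 in wild-type cells. Here the knockout arrays were higher by a narrow margin, and wild-type array 1 lay apart from the others (log2 fold change 0.13, adjusted p = 0.64, and 0.05 without that array). Rnf43, its partner, varied widely within each group and had a log2 fold change of 0.10 (95% interval -0.30 to 0.49). The remaining R-spondin genes, Rspo2, Rspo3 and Rspo4, lay within the range of -0.07 to 0.13 that covers every gene of the axis other than Lgr6 and Rspo1.

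Nkd2 showed the largest difference of the 61 genes. It encodes Naked cuticle 2, which binds Dishevelled and dampens Wnt signalling. Nkd2 had log2 values of 6.06, 6.25 and 6.10 in knockout cells, against 5.36, 5.21 and 5.04 in wild-type cells. Every knockout array stood well above every wild-type array, although the wild-type arrays spread more than those of Lgr6. The log2 fold change was 0.93 (SE 0.10, 95% interval 0.70 to 1.16), a 1.91-fold rise (limma adjusted p = 0.022). Nkd1, its close relative and a target of the pathway in several tissues, pointed the other way, with 2.98, 2.80 and 3.07 in knockout cells, against 3.17, 3.04 and 3.10 in wild-type cells. That dim signal overlapped between the groups and did not pass (log2 fold change -0.15, adjusted p = 0.61). The difference between the log2 fold changes of Nkd2 and Nkd1 was 1.08 (exact two-sided permutation p = 0.10, the smallest possible). Its groups did not overlap, which is again no further evidence, since Nkd2 was already called.

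The target genes read most often as a measure of canonical signalling did not pass the test. Axin2, which encodes a scaffold of the beta-catenin destruction complex, had log2 values of 4.95, 4.66 and 4.71 in knockout cells, against 4.86, 4.88 and 5.05 in wild-type cells. The groups overlapped, with a log2 fold change of -0.16 (95% interval -0.39 to 0.07, adjusted p = 0.65), and a dimmer probe set of Axin2 gave 0.06. Sp5, a zinc finger factor induced by Wnt signalling, had a log2 fold change of -0.05 (95% interval -0.39 to 0.28). Both intervals end below 0.70, where that of Nkd2 starts. Over the 6 arrays Axin2 averaged 4.85 and Sp5 3.71, dimmer than Nkd2 at 5.67. The deposited values compress the differences of dim genes, so these intervals bound the signal and not the RNA. The part of canonical signalling in the rise of Nkd2 was not tested.

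Promoters of Lgr6 and Nkd2, which rose, were read beside those of other Wnt genes. The 250 bases before the annotated start were taken from RefSeq (GRCm38.p6). No stretch of Wnt8a, Fzd8 or Apcdd1 was among those read. The stretches read numbered 47, for 39 of the 61 genes. They were searched on both strands for the core TCF/LEF motif, CTTTG followed by AA, AT, TA or TT. Matches to the motif are in capitals, and lie on the reverse strand where they read AACAAAG. The stretches of Lgr6 (chr1:135105277-135105526, minus strand) and Nkd2 (chr13:73847632-73847881, minus strand) are shown because these genes rose, and those of Dkk1 (chr19:30549497-30549746, minus strand) and Sp5 (chr2:70474673-70474922, plus strand) because they hold matches and their genes were not called.
Lgr6: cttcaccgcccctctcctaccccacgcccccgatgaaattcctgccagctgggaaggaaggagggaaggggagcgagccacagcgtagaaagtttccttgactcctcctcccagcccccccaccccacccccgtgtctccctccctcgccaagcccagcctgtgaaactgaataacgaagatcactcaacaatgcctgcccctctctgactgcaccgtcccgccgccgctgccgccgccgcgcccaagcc
Nkd2: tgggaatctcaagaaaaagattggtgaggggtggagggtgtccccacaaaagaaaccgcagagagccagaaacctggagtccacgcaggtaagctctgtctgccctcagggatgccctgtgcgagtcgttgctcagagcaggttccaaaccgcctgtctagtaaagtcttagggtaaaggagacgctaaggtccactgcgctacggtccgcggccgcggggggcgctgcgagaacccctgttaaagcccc
Dkk1: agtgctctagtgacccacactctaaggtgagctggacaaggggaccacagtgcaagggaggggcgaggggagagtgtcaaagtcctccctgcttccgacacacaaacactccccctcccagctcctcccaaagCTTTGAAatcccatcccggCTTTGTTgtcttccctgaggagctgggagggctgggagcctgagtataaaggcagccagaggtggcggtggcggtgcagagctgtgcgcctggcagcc
Sp5: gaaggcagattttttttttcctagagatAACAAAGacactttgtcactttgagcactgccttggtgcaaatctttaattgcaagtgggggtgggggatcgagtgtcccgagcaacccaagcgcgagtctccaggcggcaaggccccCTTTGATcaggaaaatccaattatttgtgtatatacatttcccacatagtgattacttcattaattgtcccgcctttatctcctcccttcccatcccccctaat
The motif was found in 7 of the 47 stretches, or 14.9%, against 14.8% of all 32851 promoters in the table, from which no chromosome was left out. The share among the Wnt gene stretches read was thus that of promoters in general, and the Wnt genes not read could differ. The letters were absent from the windows of Lgr6 and Nkd2, and also from those of the feedback targets Axin2 and Nkd1. The Wnt gene stretches were rich in CG dinucleotides, with a median of 16 per 250 bases, against 6 over all promoters, and those of Lgr6 and Nkd2 held 16 and 14.

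Sfrp1 was the one gene called among the antagonists. It had no stretch among the 47 promoter stretches read, so the absence of the motif from Lgr6 and Nkd2 does not extend to Sfrp1. Secreted frizzled-related proteins carry a Frizzled-like domain and bind Wnt ligands outside the cell. Sfrp1 had log2 values of 8.35, 8.36 and 8.23 in knockout cells, against 7.72, 7.83 and 7.78 in wild-type cells. The groups were clearly apart, by a log2 fold change of 0.54 (SE 0.06, 95% interval 0.39 to 0.68), a 1.45-fold rise (limma adjusted p = 0.026). The relatives Sfrp2, Sfrp4 and Sfrp5 had log2 fold changes of -0.07, 0.0057 and 0.13 and did not pass. Set against them, the log2 fold change of Sfrp1 was greater by 0.61, 0.53 and 0.41, and the groups did not overlap in any of these 3 differences (exact two-sided permutation p = 0.10 each, the smallest possible). Against Sfrp5 the groups nearly met, with a lowest knockout difference of 4.315 and a highest wild-type one of 4.307. Altogether 6 such differences between relatives were computed, for the LGR, Naked and Sfrp genes, and with 3 arrays a group none could pass 0.05. Each was built around a gene already called on these arrays, so the separate groups are no further evidence.

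Dkk1 encodes a secreted inhibitor that binds LRP5 and LRP6. It had log2 values of 3.98, 4.15 and 3.93 in knockout cells, against 3.83, 3.81 and 3.84 in wild-type cells. The knockout arrays were all higher, but by little, and the gene was not called (log2 fold change 0.19, SE 0.07, adjusted p = 0.40). The other 10 antagonists lay between -0.19 and 0.13 on the log2 scale of differences, 5 of them positive and 5 negative, and none had separate groups. Among these, Dkk4 varied most of all 61 genes, with 4.74, 3.91 and 4.12 in knockout cells, against 4.55, 4.25 and 4.53 in wild-type cells. Its difference of -0.19 was smaller than the spread between the knockout arrays alone. Frzb, another Frizzled-related antagonist and the dimmest of the 61 genes, also had a wide interval (log2 fold change -0.17, 95% interval -0.51 to 0.18). Wif1, a Wnt-binding inhibitor, and Apcdd1, a membrane inhibitor, had log2 fold changes of 0.11 and 0.07. Notum, the enzyme that removes the lipid from Wnt proteins, had -0.06, while a dimmer probe set of the gene gave 0.12.

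**Figure D2:**
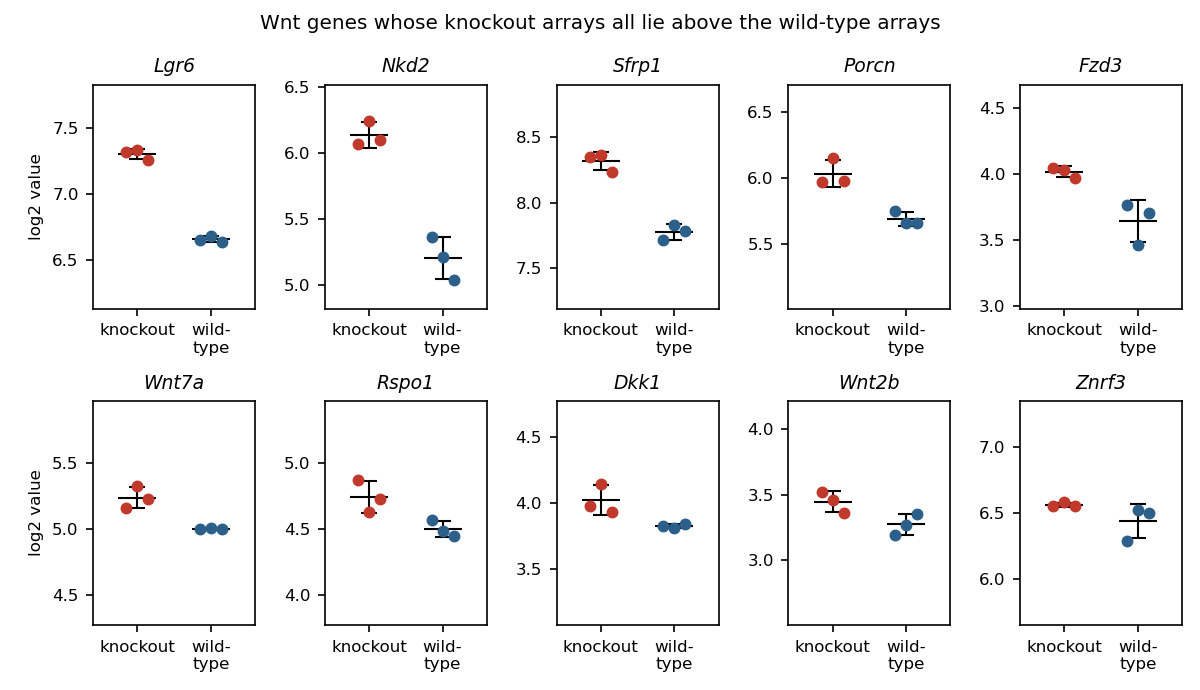
Log2 values (vertical axes, all with the same span) of the 10 Wnt genes whose knockout arrays (red, left) all lie above the wild-type arrays (blue, right), with the mean and SD of 3 arrays in black. The gap is widest for Nkd2 and narrowest for Wnt2b, where the lowest knockout array (3.360) is next to the highest wild-type array (3.356).

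None of the 19 Wnt ligand genes was called. Wnt7a, whose product patterns limbs and the female reproductive tract, had log2 values of 5.16, 5.32 and 5.23 in knockout cells, against 4.9995, 5.0044 and 4.9995 in wild-type cells. The wild-type arrays were nearly identical and the knockout arrays all higher (log2 fold change 0.24, SE 0.06, adjusted p = 0.23). Wnt2b had 3.52, 3.46 and 3.36 in knockout cells, against 3.20, 3.27 and 3.36 in wild-type cells. Its groups met almost end to end (log2 fold change 0.17, adjusted p = 0.45). Wnt8a had 3.76, 4.12 and 3.83 in knockout cells, against 3.71, 3.71 and 3.79 in wild-type cells, with knockout array 2 well above the rest (log2 fold change 0.17, adjusted p = 0.64, and 0.06 without that array).

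On the lower side, Wnt9a had log2 values of 6.01, 5.74 and 5.76 in knockout cells, against 5.97, 6.08 and 6.03 in wild-type cells. Knockout array 1 lay within the wild-type range and the other knockout arrays below it (log2 fold change -0.18, adjusted p = 0.53). The related genes Wnt10a and Wnt10b, both known from embryonic mammary and skin development, also had lower means in knockout cells. Wnt10a had 9.50, 9.45 and 9.32 in knockout cells, against 9.60, 9.54 and 9.48 in wild-type cells. For Wnt10b the values were 3.34, 3.42 and 3.22 in knockout cells, against 3.48, 3.36 and 3.54 in wild-type cells. Neither was separated, with log2 fold changes of -0.11 and -0.14 (adjusted p = 0.64 and 0.62). Wnt7b, a mammary epithelial ligand, had a log2 fold change of 0.11 (95% interval -0.05 to 0.27). All 19 ligand intervals lay within 0.5 log2 units of no change, and the 17 ligands other than Wnt7a and Wnt2b ran from -0.18 to 0.17.

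Porcn encodes the enzyme of the endoplasmic reticulum that attaches the lipid without which Wnt ligands are not secreted. It had log2 values of 5.97, 6.15 and 5.97 in knockout cells, against 5.75, 5.66 and 5.65 in wild-type cells. The knockout arrays were all higher, and the gene came closest to the threshold among those not called (log2 fold change 0.34, SE 0.07, adjusted p = 0.13). It did pass with an intensity trend (adjusted p = 0.029) and without the dimmest 50% of genes (adjusted p = 0.027).

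None of the 12 receptor and co-receptor genes was called. Fzd3, a Frizzled best known from axon guidance and planar cell polarity, had log2 values of 4.05, 4.03 and 3.97 in knockout cells, against 3.76, 3.46 and 3.70 in wild-type cells. The groups were apart, but wild-type array 2 was well below the others, and the gene was not called (log2 fold change 0.37, SE 0.09, adjusted p = 0.20). The other 11 receptor and co-receptor genes lay between -0.09 and 0.05, and their intervals reached no further than -0.31 and 0.27. They include the co-receptors Lrp5 and Lrp6 and the Frizzled genes with bright probe sets, such as Fzd6. None of the 11 had separate groups.

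The TCF/LEF factors, which carry the signal to DNA, did not pass either. Tcf7l1, mainly a repressor of target genes, had log2 values of 5.82, 5.99 and 5.76 in knockout cells, against 6.08, 5.98 and 5.99 in wild-type cells. Knockout array 2 overlapped the wild-type arrays (log2 fold change -0.16, SE 0.07, adjusted p = 0.53). Tcf7l2 had a log2 fold change of 0.00034 (95% interval -0.12 to 0.12), and Lef1, itself a target of the pathway, one of 0.11 (95% interval -0.11 to 0.32).

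**Figure D3:**
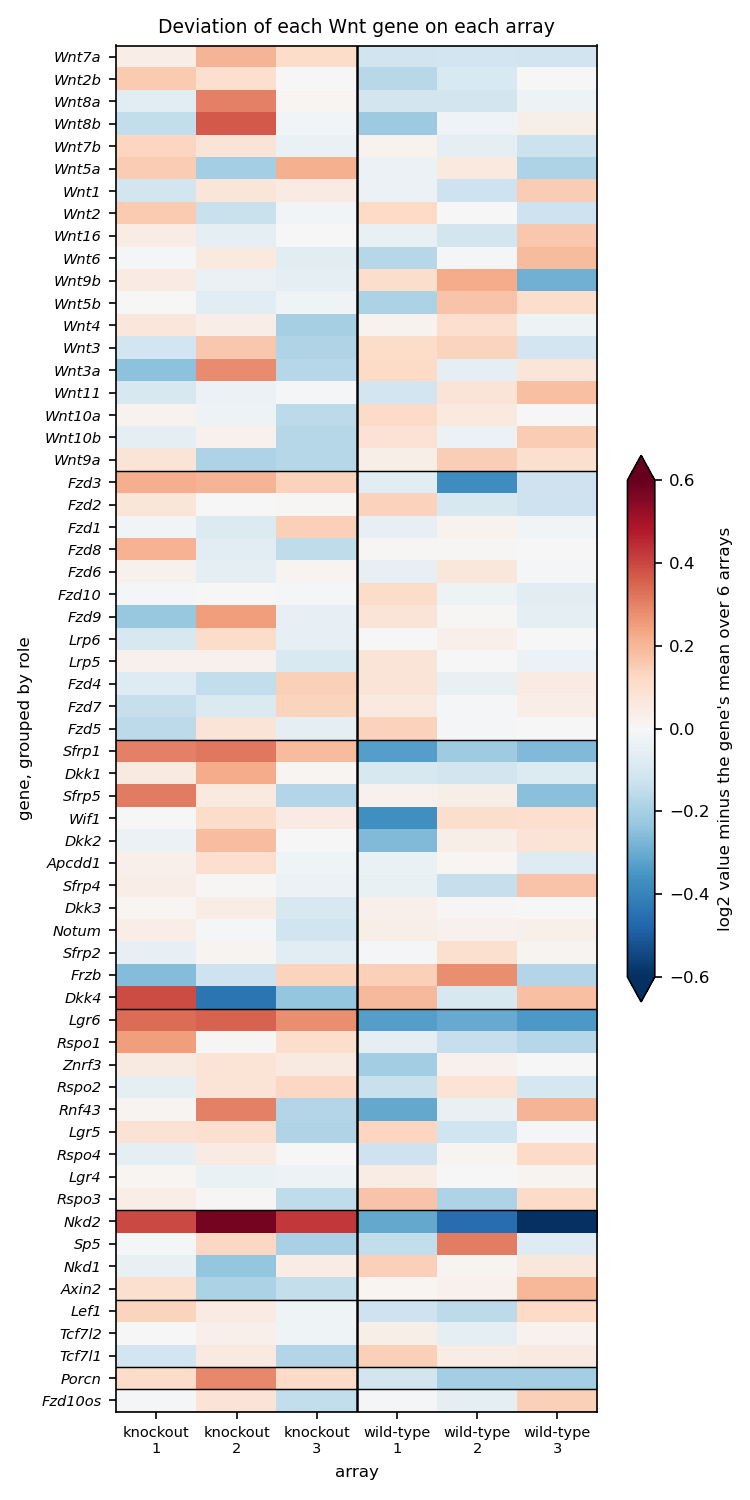
Deviation of each of the 61 Wnt genes (rows, grouped by role) from its own mean on each array (columns, knockout on the left), in log2 units by colour. The rows of Sfrp1, Lgr6 and Nkd2 are clearly red on all knockout arrays and clearly blue on all wild-type arrays, while most other rows change colour within a genotype.

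No array stood apart over the Wnt genes as a whole. Their median deviation from each gene's mean was 0.02, 0.05 and -0.03 on knockout arrays 1 to 3, against -0.01, -0.0043 and -0.0026 on the wild-type arrays. The SD within groups had a median of 0.11 over the 61 genes, against 0.10 over all genes, and ran from 0.03 for Lgr4 to 0.33 for Dkk4.

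Other genes of the pathway were taken from a list of 86 symbols, older names included, of which 80 were measured: the cytoplasmic and nuclear core, modulators of ligand secretion, alternative receptors with planar polarity genes, and further reported targets. None of the 80 was called higher or lower, and their median log2 fold change was 0.02. At an unadjusted p under 0.05, 7 were higher and 6 lower, larger shares than the 5.75% and 4.47% of all genes. The groups were separate upward for 12 of the 80 and downward for 14, against 8.79% and 8.10% of all genes. Upward separation was thus about as common here as among the 61 Wnt genes (16.4%), of which 0 were separated downward. The smallest p belonged to Celsr2, a planar polarity cadherin, which had log2 values of 4.88, 5.03 and 4.99 in knockout cells, against 5.43, 5.45 and 5.31 in wild-type cells. All knockout arrays were below the wild-type arrays (log2 fold change -0.43, SE 0.07, adjusted p = 0.068). For Celsr1, of the same family, the groups were separate in the other direction (log2 fold change 0.21, SE 0.06, adjusted p = 0.30). Cxxc5, which encodes a Dishevelled-binding inhibitor, had 5.55, 5.74 and 5.72 in knockout cells, against 5.28, 5.28 and 5.18 in wild-type cells. The groups were apart here too (log2 fold change 0.42, SE 0.07, adjusted p = 0.083).

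Gpc3, a glypican that binds Wnt ligands, was dim and higher by 0.31 (SE 0.05, adjusted p = 0.093). The target gene Sox9, which encodes a transcription factor of progenitor cells, had 9.74, 9.78 and 9.65 in knockout cells, against 10.01, 10.05 and 9.93 in wild-type cells. Its knockout arrays were all lower, without a call (log2 fold change -0.27, SE 0.06, adjusted p = 0.18), and Zbtb7c had -0.26 (SE 0.06, adjusted p = 0.20). Of the 31 measured genes of the cytoplasmic and nuclear core, Cxxc5 was the only one with an unadjusted p under 0.05.

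Markers of the epithelial lineages and of other cell types were read beside the Wnt genes. Summed on the linear scale, 14 luminal markers gave 4095 to 4158 on the knockout arrays and 3970 to 4034 on the wild-type arrays. For 11 basal and myoepithelial markers the sums were 4646 to 4807 on the knockout arrays and 4837 to 4916 on the wild-type arrays. Most of each sum was the signal of its brightest members, Krt8 and Krt18 for the luminal list and Vim for the basal one, and single markers differed in both directions. Of the luminal genes, Cdh1 fell (limma adjusted p = 0.022). The knockout arrays also all lay below the wild-type arrays for Cldn7, Epcam, Esr1 and Gata3, and all above them for Cldn3, Krt8, Krt18 and Krt19, without a call. Of the basal genes, Krt14 fell (adjusted p = 0.0096) and Mme rose (adjusted p = 0.0055). Without a call, the knockout arrays all lay below the wild-type arrays for Acta2 (log2 fold change -0.47, limma adjusted p = 0.055). They all lay above them for Mylk (log2 fold change 0.42, limma adjusted p = 0.20). The 7 adipocyte markers summed to 214 to 218 on the knockout arrays and 145 to 158 on the wild-type arrays. Fabp4, a fatty acid carrier and the brightest of these genes, rose (log2 fold change 0.92, limma adjusted p = 0.029). Of the 7 adipocyte markers, 3 had positive and 4 had negative log2 fold changes. Adipoq, which defines that cell type, was dim at 2.65 ± 0.12 in knockout cells and 2.72 ± 0.17 in wild-type cells (SD, n = 3 each). Sums of 11 fibroblast, 8 endothelial, 9 leukocyte and 6 Schwann and neural crest markers overlapped between the groups, while Sox10 in the last list rose (log2 fold change 1.47, adjusted p = 0.0093) and the fibroblast marker Pdgfrb fell by 0.67 (adjusted p = 0.0066). The part of these markers in the rise of Lgr6, Nkd2 and Sfrp1 was not tested.

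The calls of the 3 Wnt genes were lost in many of the fits with 1 array left out, while their log2 fold changes moved little. Over all genes, such fits also called fewer higher, 13 to 24 against 72 with every array. With 1 array left out, the log2 fold change of Lgr6 stayed between 0.63 and 0.67 and its adjusted p between 0.035 and 0.061, with the call lost without knockout array 1 or wild-type array 3. Nkd2 ran from 0.85 to 1.01 with adjusted p of 0.043 to 0.11, and passed only without wild-type array 1. Sfrp1 ran from 0.51 to 0.58 with adjusted p of 0.079 to 0.13, and passed in none of the 6 fits. With the replicate number as a block no Wnt gene passed, the adjusted p being 0.11 for Lgr6, 0.14 for Nkd2 and 0.18 for Sfrp1.

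**Figure D4:**
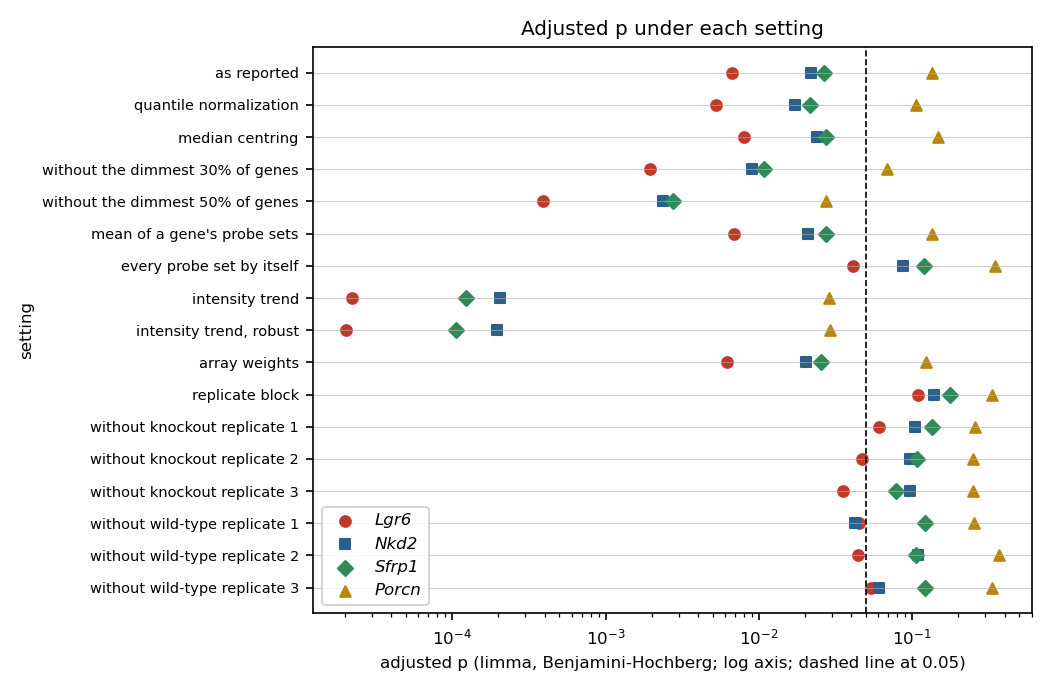
Adjusted p (horizontal log axis, limma with Benjamini-Hochberg adjustment, dashed line at 0.05) of Lgr6, Nkd2, Sfrp1 and Porcn under the reported setting and each of the 16 alternatives (rows). Lgr6 lies left of the line in 13 of the 16 alternatives, Nkd2 in 9, Sfrp1 in 8 and Porcn in 3.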

How the data were processed

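The data were 1 table of log2 values for 41345 probe sets on 6 arrays, deposited by the authors and made, per the submitters' processing notes, with Affymetrix Expression Console 1.4.1.46. The sources used here do not give the background correction, normalization or summarisation. Base 2 was inferred, since the highest value, 12.4, is above what natural logarithms of 16-bit signals reach (11.1). Such values compress the differences of dim genes, and probe sets were not filtered by detection. Probe sets were named through the platform annotation (23521 with 1 symbol, 1814 with several, 16010 not listed). Probe sets with several symbols were not used here, and Tcf7 was not analysed here.

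Groups came from the sample titles. Knockout was compared with wild-type over all 22180 genes by limma's moderated test (version 3.58.1, R 4.3.3; no trend, no covariate, no filter on dim genes), with two-sided p-values adjusted by Benjamini-Hochberg at 0.05. The fit was tested on simulated data. Intervals are 95% intervals from the moderated standard error. Relatives were compared by exact permutation over arrays. The members, lists and tests were chosen with earlier results of these data known. Every value is given per array for the 16 Wnt genes with the smallest p, and of other pathway genes the 6 with the smallest p are named; Axin2, Lgr4 and Dkk4 and the values of further genes were added after their values were seen. The number of arrays limits the precision.

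Same-numbered arrays of the groups did not deviate together (correlations over genes of 0.04, 0.02 and -0.07), so the replicate block is an alternative only. Further alternatives were median centring, quantile normalization, filters on the dimmest 30% or 50% of genes, averaging a gene's probe sets, testing every probe set, array weights, an intensity trend (plain or robust) and omission of each array in turn.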

Additional observations from a re-analysis of the deposited data

How the results depend on the processing

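Of 39 single genes followed (Slk, 32 Wnt genes and 6 other pathway genes), 549 of 602 values under the 16 alternatives kept their direction and their side of the threshold, 18 lost a call, 15 gained one and 20 changed sign. Slk kept its call in all 16 (adjusted p up to 0.046). The counts moved more than the fold changes. Against 72 genes higher and 25 lower over the whole array, there were 143 and 63 without the dimmest 30% of genes, 202 and 139 without the dimmest 50%, 265 and 176 with an intensity trend, 264 and 179 with a robust trend, and 22 and 4 when every probe set was tested. Leaving out 1 array gave 13 to 24 higher and 2 to 5 lower. The 3 higher Wnt genes became 1 (Lgr6) when every probe set was tested and 0 to 2 with 1 array left out, and stayed between 3 and 4 in the other alternatives without a block. No Wnt gene was called lower in any. Of the other pathway genes, 1 was higher and 1 lower without the dimmest 30%, 1 and 3 without the dimmest 50%, and 1 and 2 with either trend: Cxxc5 higher, Celsr2, Sox9 and Zbtb7c lower. The filters left 51 and 27 of the 61 Wnt genes, so fewer genes were tested, and the cause of the other changes was not tested. With the replicate block, 5 genes were higher and 1 lower over the whole array, and 0 Wnt genes were called. The replicate numbers are not known to pair the arrays.

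All sign changes were in 7 Wnt genes that passed in no alternative. Lgr5 had -0.011 with quantile normalization, -0.0019 with median centring and -0.018 as a mean of probe sets. Sfrp4 had -0.00048 with quantile normalization, Tcf7l2 -0.0032 with median centring, and Notum 0.032 as a mean of probe sets. With 1 array left out, the ranges were -0.057 to 0.091 for Lgr5, -0.062 to 0.093 for Sfrp4, -0.029 to 0.019 for Tcf7l2, -0.14 to 0.086 for Sp5, -0.033 to 0.22 for Rnf43 and -0.048 to 0.19 for Wif1. The 10 Wnt genes with separate groups stayed positive in every alternative that tested them.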
